A study of Marchantia polymorpha with 12 samples.

Results

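MpFER (Mp4g15890) and MpMRI (Mp7g17560) are the kinase genes after which the mutant lines of this study of the liverwort Marchantia polymorpha are named. They were chosen by their identifiers, and are 2 of 18336 genes. The digit after Mp in an identifier names the chromosome, 4 for MpFER and 7 for MpMRI. RNA of thalli with rhizoids, grown from gemmae on cellophane over agar medium in long days and harvested at 3 weeks, was sequenced in 12 libraries, 3 in each of 4 groups. Tak-1 is the male and Tak-2 the female wild type. Mpfer-1 is a male line with the genotype label MpFER Knockdown, and Mpmri-1 a female line with the genotype label MpMRI Knockdown. Each gene is represented by 1 line, so the targeted gene, the line and its sex cannot be told apart. Nothing in the labels says that the libraries of a group, lettered A, B and C, came from separate cultures, so the p-values measure the spread between these samples, which may be technical. The libraries are of whole tissue, in which fewer cells of a type and less RNA per cell cannot be told apart.

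In Arabidopsis, FERONIA is a receptor kinase of the CrRLK1L family that sits in the plasma membrane, binds cell wall pectin and senses RALF peptides together with small GPI-anchored co-receptors of the LORELEI family. It acts through RopGEFs on ROP GTPases, and is known for guarding the wall of cells that grow at their tip, among them root hairs. MARIS is a receptor-like cytoplasmic kinase, a kinase without an extracellular part, that acts downstream of receptors of this family in pollen tubes and root hairs. Rhizoids, the hair-like cells that anchor a liverwort, also grow at the tip.

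MpFER was lower in Mpfer-1 than in every other group, and MpMRI was higher in the Mpmri-1-labelled libraries than in every other group. Estimated counts of MpFER were 5069, 5374 and 5403 in Tak-1 replicates A, B and C, and 3516, 2889 and 3922 in Mpfer-1. They were 4364, 4936 and 5517 in Tak-2 and 4574, 5315 and 5848 in the Mpmri-1-labelled libraries. Scaled with TMM factors to a common library total (CPM), the mean level of MpFER was 95.4 ± 6.29 CPM in Mpfer-1, 164 ± 8.43 in Tak-1, 184 ± 3.53 in Tak-2 and 195 ± 17.8 in the Mpmri-1-labelled libraries (SD, n = 3 throughout). On this TMM scale all Mpfer-1 libraries lay below all others, and those of Tak-1 below those of Tak-2. The Tak-2 libraries lay within the range of those labelled Mpmri-1 (179.1 to 214.4 CPM), so these neighbours in the order of means did not differ beyond their spread. On library totals alone the wild types overlapped, with 177.6, 178.2 and 153.2 CPM in Tak-1 and 170.8, 173.1 and 182.6 in Tak-2.

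For MpMRI, the counts of replicates A, B and C were 6986, 7454 and 8431 in Tak-1, and 8150, 6876 and 9476 in Mpfer-1. They were 6347, 7330 and 7856 in Tak-2, and 14900, 19252 and 23186 in the Mpmri-1-labelled libraries. The means were 226 ± 12.4 CPM in Mpfer-1, 236 ± 4.33 in Tak-1, 267 ± 2.31 in Tak-2 and 704 ± 57.9 in the Mpmri-1-labelled libraries. On this TMM scale Mpfer-1 and Tak-1 overlapped, Tak-2 lay above both, and the Mpmri-1-labelled libraries lay far above all others. On library totals alone, Mpfer-1 had 280.8, 242.5 and 268.3 CPM and Tak-2 had 248.4, 257.1 and 260.1, which overlap. The Mpmri-1-labelled libraries stayed above all others there, at 557.5 CPM or more. The measured direction thus went against the label, since MpMRI was higher in the line labelled as its knockdown.

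**Figure D1:**
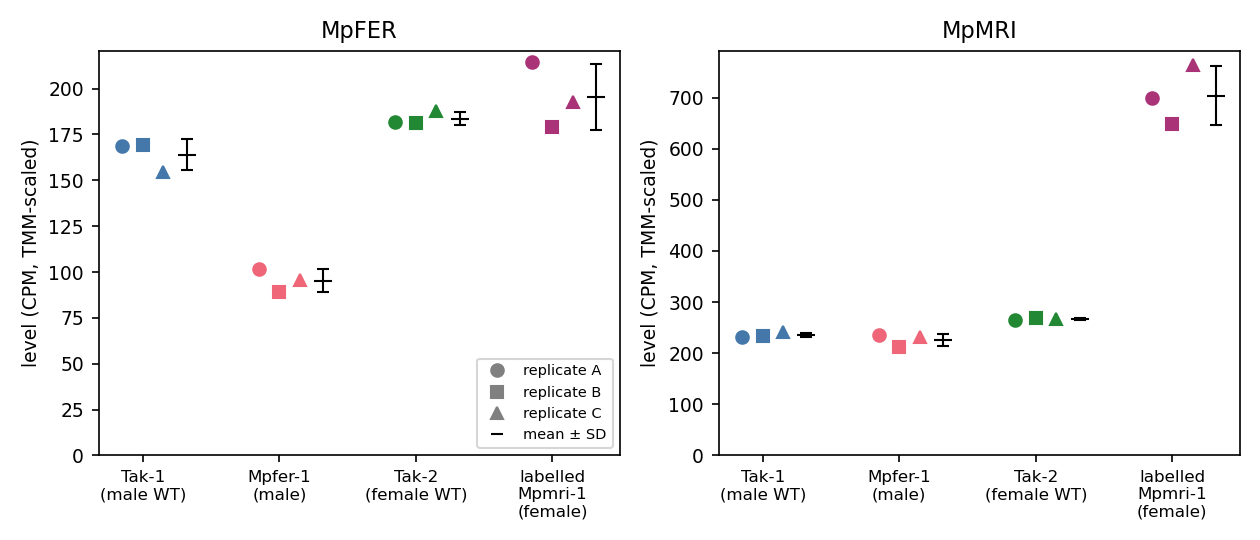
Level of MpFER (left) and MpMRI (right) in CPM after TMM scaling, on axes that start at 0. Symbols are the libraries A, B and C of each group and bars the mean ± SD. MpFER stands at 89.03 to 101.6 CPM in Mpfer-1 and at 154.3 CPM or more in all other libraries, and MpMRI at 648.8 to 764.2 CPM in the Mpmri-1-labelled libraries and at 269.1 CPM or less in all others.

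Tests were run across all 14044 genes that passed a filter on low counts, and calls below are those with an adjusted p (Benjamini-Hochberg) under 0.05. In Mpfer-1 against Tak-1, MpFER fell by 0.78 on the log2 scale (SE 0.081; adjusted p 7.18e-06 in the quasi-likelihood test of edgeR). This is a 1.72-fold lower level, with a 95% interval on the log2 scale of -0.96 to -0.61. This call is 1 among many. In that comparison 56.2% of all genes were called, 29.1% higher and 27.1% lower, and 1932 genes had a lower log2 fold change than MpFER. MpMRI had a log2 fold change of -0.062 (SE 0.076, edgeR adjusted p 0.512) in Mpfer-1, with an interval of -0.23 to 0.10. That interval holds on the TMM scale, and on library totals the value was 0.12 (adjusted p 0.321).

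In the Mpmri-1-labelled libraries against Tak-2, MpMRI rose by 1.40 on the log2 scale (SE 0.078, edgeR adjusted p 4.42e-08), a 2.64-fold higher level with a 95% interval of 1.23 to 1.57. Here 64.1% of genes were called, 33.0% higher and 31.1% lower, 1702 genes had a higher log2 fold change than MpMRI, and by adjusted p it stood at place 207. MpFER had a log2 fold change of 0.090 (SE 0.080, edgeR adjusted p 0.339), with an interval of -0.085 to 0.27. The effect on MpFER differed between both comparisons by 0.87 (SE 0.11, edgeR adjusted p 0.000208), and that on MpMRI by 1.46 (SE 0.11, edgeR adjusted p 3.6e-06). This difference, the effect in the Mpmri-1-labelled libraries minus that in Mpfer-1, was called for 37.3% of all genes, 21.0% higher and 16.3% lower.

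The comparison between the wild types and that between the lines use the same libraries again. Tak-2 against Tak-1 gave a log2 fold change of 0.16 for MpFER (SE 0.080, edgeR adjusted p 0.139, interval -0.013 to 0.34) and of 0.18 for MpMRI (SE 0.076, edgeR adjusted p 0.091, interval 0.011 to 0.34). Neither was called, where 35.1% of all genes were. Between the Mpmri-1-labelled libraries and those of Mpfer-1, where 51.4% of genes were called, MpFER was 1.03 higher on the log2 scale (SE 0.081, edgeR adjusted p 3.42e-06) and MpMRI 1.64 higher (SE 0.078, edgeR adjusted p 3.23e-08). Only 353 genes of 14044 had a higher value than MpMRI there.

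The scale on which these differences are read moved with the normalization. TMM factors were 1.144 to 1.193 in Mpfer-1 and 0.798 to 0.932 in the Mpmri-1-labelled libraries. With library totals alone, the median log2 fold change over the 14044 genes moved from 0.022 to 0.20 in Mpfer-1, from 0.0015 to -0.13 in the Mpmri-1-labelled libraries, and from 0.013 to -0.30 for the difference of the effects. The share of called genes that were higher moved from 51.8% to 67.2% in Mpfer-1, from 51.5% to 42.2% in the Mpmri-1-labelled libraries and from 56.4% to 26.2% for the difference. Tak-2 against Tak-1 moved from 48.8% to 30.1%, and the Mpmri-1-labelled libraries against Mpfer-1 from 52.9% to 16.2%. On totals, MpFER was at -0.61 in Mpfer-1 and MpMRI at 1.26 in the Mpmri-1-labelled libraries. The value of MpFER in the Mpmri-1-labelled libraries turned from 0.090 to -0.052, and was not called on either scale. The difference of the effects on MpFER moved from 0.87 to 0.56 and that between the lines from 1.03 to 0.60, both still called by edgeR (adjusted p 0.00528 and 0.000174). Over all 14 alternatives, MpFER in Mpfer-1 lay between -0.83 and -0.61 and MpMRI in the Mpmri-1-labelled libraries between 1.26 and 1.45. Both were called under each of them, with the largest adjusted p at 0.000118 and 2.59e-05.

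The count ratio of both genes within a library does not depend on that scale. MpMRI had 1.378, 1.387 and 1.56 counts per MpFER count in Tak-1 replicates A, B and C, and 1.454, 1.485 and 1.424 in Tak-2. It had 2.318, 2.38 and 2.416 in Mpfer-1, and 3.258, 3.622 and 3.965 in the Mpmri-1-labelled libraries. The wild types overlapped, Mpfer-1 lay above them, and the Mpmri-1-labelled libraries lay above Mpfer-1 with no overlap. The mean ratio was 1.65-fold higher in Mpfer-1 than in Tak-1 (log2 difference 0.72, SE 0.061) and 2.48-fold higher in the Mpmri-1-labelled libraries than in Tak-2 (1.31, SE 0.084). Between these lines it differed 1.52-fold (0.60, SE 0.084). Each of the 3 differences had p = 0.1 in a two-sided exact permutation test of 3 libraries against 3, the smallest p that the design allows (adjusted p 0.133 over 4 pairs). Tak-2 and Tak-1 differed by 0.015 (SE 0.061, exact permutation p 0.9). No transcript lengths were at hand, so the ratio compares libraries and does not say which of the genes has more transcripts.

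By counts, both genes ranked high among the 15402 to 15968 genes with a count in a library. MpFER stood at ranks 971, 954 and 1116 in Tak-1 and 958, 941 and 900 in Tak-2, within the top 7.04% of genes. Its ranks were 903, 1058 and 949 in the Mpmri-1-labelled libraries, which overlap those of the wild types. In Mpfer-1 it stood at 1791, 2154 and 1978, between the top 11.3% and the top 13.6%, below all other libraries. MpMRI stood between ranks 552 and 652 in all 9 libraries of Tak-1, Tak-2 and Mpfer-1. In the Mpmri-1-labelled libraries it stood at 278, 266 and 188, within the top 1.79%. Counts grow with transcript length, so a rank places a gene among libraries and not by its number of molecules.

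**Figure D2:**
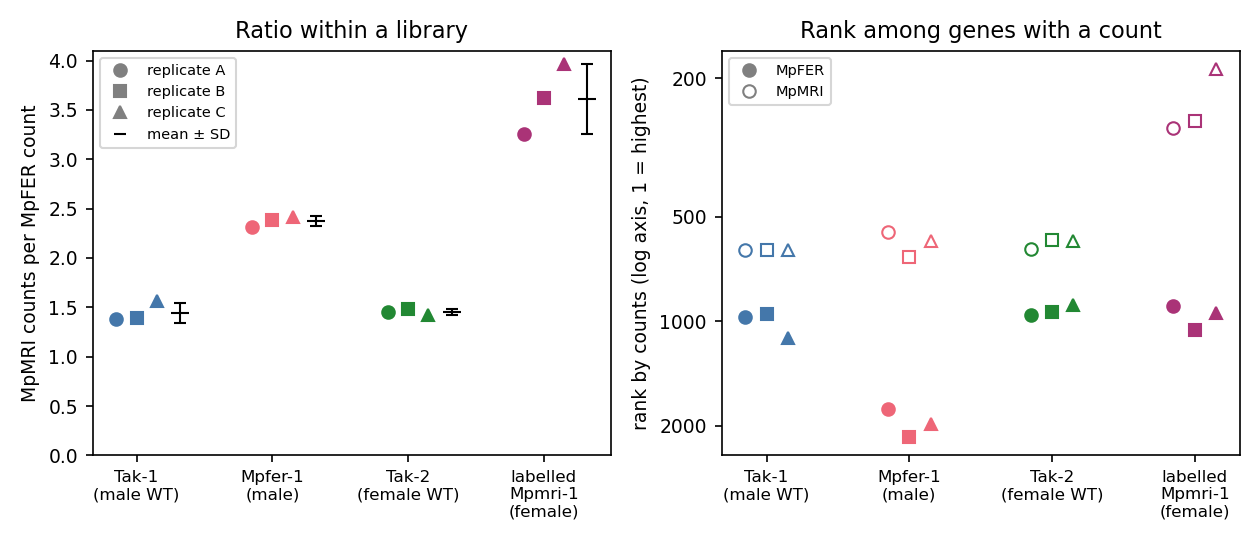
MpMRI counts per MpFER count within each library (left, axis from 0, bars mean ± SD) and the rank of both genes by counts (right, log axis, 1 is the highest; filled MpFER, open MpMRI). The ratio is 1.378 to 1.56 in both wild types, 2.318 to 2.416 in Mpfer-1 and 3.258 to 3.965 in the Mpmri-1-labelled libraries. The rank of MpFER is 1791 to 2154 in Mpfer-1, and that of MpMRI is 188 to 278 in the Mpmri-1-labelled libraries.

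Replicates of a group agreed closely for both genes. The coefficient of variation of MpFER was 5.13% in Tak-1, 6.57% in Mpfer-1, 1.92% in Tak-2 and 9.11% in the Mpmri-1-labelled libraries. Among genes within 2-fold of its level (1700 to 3460 genes per group), the median was 5.39%, 5.82%, 3.71% and 11.1%. For MpMRI it was 1.83%, 5.5%, 0.862% and 8.22%, against medians of 5.54%, 6.2%, 3.82% and 16.2% among 394 to 1319 genes of like level. Both genes thus varied about as much as genes of like level or less, and the Mpmri-1-labelled libraries varied most in either case. At these levels counting alone gives an error of 0.72% to 1.7%. MpFER has 1 transcript model in the deposited table, and 0 of its 12 values are whole numbers. Division of reads with another model could give such values, but was not tested. All 12 values of MpMRI are whole.

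Laboratories often express such genes relative to a reference gene in quantitative PCR, so both were also divided by the counts of 5 genes in common use, MpEF1 (an elongation factor), MpAPT (an adenine phosphoribosyltransferase) and the actins MpACT1, MpACT2 and MpACTIN7. This was added after the data were seen. The values moved with the choice of reference. MpFER had 38.1, 38.1 and 31.1 counts per 1000 MpEF1 counts in Tak-1 replicates A, B and C and 36.1, 28.5 and 33.8 in Mpfer-1, and the groups overlapped. That log2 difference was -0.13 (SE 0.14, exact permutation p 0.5, 3 against 3). Relative to MpACTIN7 it was -0.19 (SE 0.084, exact permutation p 0.2), also with overlap. Relative to MpACT1, MpAPT and MpACT2 it was -0.45, -0.88 and -1.01, with Mpfer-1 below Tak-1 in every library. These 3 had p = 0.1, the smallest that the exact permutation test of 3 against 3 allows, and 0.133 adjusted over 20 comparisons.

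The references themselves moved. MpEF1 fell by 0.66 in Mpfer-1 (SE 0.14, edgeR adjusted p 0.00179) and MpACTIN7 by 0.60 (SE 0.081, edgeR adjusted p 6e-05). MpACT1 fell by 0.33 (edgeR adjusted p 0.00408), a call lost on library totals (-0.16). MpAPT and MpACT2 had values of 0.10 and 0.24 that were not called, and on totals both were called higher (0.28 and 0.41, edgeR adjusted p 0.00468 and 0.00718), as was MpACT2 with both groups fitted alone (0.23, adjusted p 0.0464). In the Mpmri-1-labelled libraries, MpMRI was higher than in Tak-2 in every library with each of the 5 references. The log2 difference was 0.57 against MpACT2, 1.05 against MpAPT, 1.08 against MpEF1, 1.29 against MpACTIN7 and 1.32 against MpACT1 (exact permutation p 0.1 each, the smallest possible). MpACT2 itself rose there by 0.85 (edgeR adjusted p 0.000192).

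The gene that was not called on the TMM scale in each comparison also moved with the reference. For MpMRI in Mpfer-1 against Tak-1 the log2 difference was 0.59 relative to MpEF1, 0.53 to MpACTIN7 and 0.27 to MpACT1, and -0.16 relative to MpAPT and -0.29 to MpACT2. The groups did not overlap with any of the 5, so that its sign turned with the reference (exact permutation p 0.1 each, the smallest possible). For MpFER in the Mpmri-1-labelled libraries against Tak-2 the log2 difference was -0.74 relative to MpACT2 and -0.26 to MpAPT, with no overlap (exact permutation p 0.1 each). Relative to MpEF1, MpACTIN7 and MpACT1 it was -0.23, -0.024 and 0.014, with overlap.

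**Figure D3:**
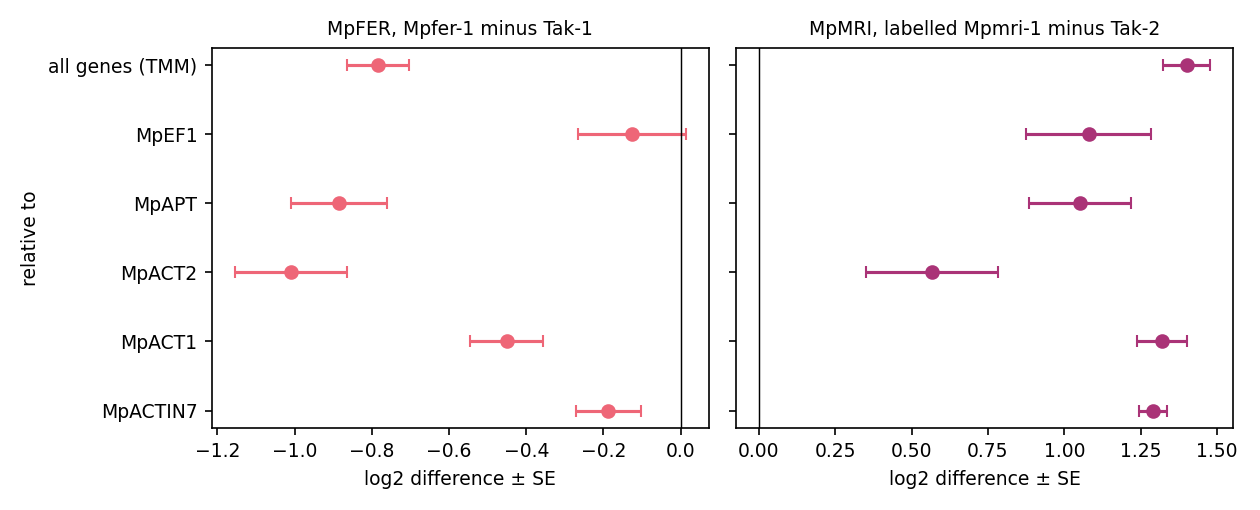
MpFER in Mpfer-1 against Tak-1 (left) and MpMRI in the Mpmri-1-labelled libraries against Tak-2 (right), as log2 differences of counts relative to each reference gene. Points are differences of group means with SE, n = 3 against 3, save for the top point of each panel. That point is the edgeR log2 fold change ± SE on the TMM scale (-0.78 for MpFER and 1.40 for MpMRI). Relative to the reference genes, the values for MpFER run from -1.01 with MpACT2 to -0.13 with MpEF1, and for MpMRI from 0.57 with MpACT2 to 1.32 with MpACT1.

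The tissue sampled was checked with marker genes. MpRSL1 (listed as MpBHLH14), a transcription factor required for rhizoids, was present in every library, at 15.3 to 20.3 CPM in the Tak-1 libraries and 17.8 to 19.3 in Mpfer-1, and at 8.7 to 9.32 CPM in Tak-2 and 9.16 to 12 in the Mpmri-1-labelled libraries. Its log2 fold change was 0.029 in Mpfer-1 (edgeR adjusted p 0.859) and 0.23 in the Mpmri-1-labelled libraries (adjusted p 0.133), where it was called without Mpmri-1 replicate C (0.32, adjusted p 0.046). MpNOP1, of air chambers, lay at 63.2 to 73.4 CPM in Tak-1, 66.3 to 73.2 in Mpfer-1 and 68.1 to 71.4 in Tak-2, and at 77.9 to 94.1 CPM in the Mpmri-1-labelled libraries. It rose there by 0.28 (edgeR adjusted p 0.0117), a call lost on totals (0.15). MpBNB (listed as MpBHLH20), a factor of germ cell specification, lay at 0 to 0.068 CPM. MpR2R3-MYB1, chosen as a further marker of gametangia and germ line, lay at 3.63 to 3.96 CPM in Tak-1 and 3.24 to 4.89 in Mpfer-1, the male groups. In the female groups it lay at 0 to 0.068 CPM in Tak-2 and at 0 in the Mpmri-1-labelled libraries. What its counts in the male groups stand for was not tested. Markers of oil body cells (MpC1HDZ, MpERF13 and MpSYP12B) summed to 41.4 to 55.5 CPM in the Tak-1 libraries and 80.2 to 101 in Mpfer-1, and to 42.2 to 55.5 in Tak-2 and 80.7 to 81.5 in the Mpmri-1-labelled libraries. Most of that sum is MpC1HDZ, which rose by 0.97 and by 0.73 (edgeR adjusted p 8.76e-05 and 0.000634), and MpSYP12B rose by 0.52 and by 0.66 (adjusted p 0.00995 and 0.00187). MpERF13 went the other way in Mpfer-1, at -0.39 (edgeR adjusted p 0.0603). It was called lower there without Tak-1 replicate C (-0.51), with RLE factors (-0.42), by DESeq2 (-0.42), with the replicate block (-0.39) and with both groups alone (-0.40), and stood at 0.32 in the Mpmri-1-labelled libraries (adjusted p 0.112). MpGCAM1, of gemma cups, lay at 2.14 to 2.89 and 3.48 to 5.33 CPM in the Tak-1 libraries and Mpfer-1, and at 0.34 to 0.417 and 2.86 to 4.22 CPM in Tak-2 and the Mpmri-1-labelled libraries. The part of these differences in the values of MpFER and MpMRI was not tested.

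Genes of the pathway in which FERONIA acts in Arabidopsis were taken from lists made by symbol, starting with the ligands. Of 3 RALF peptide genes, 0 rose and 2 fell in Mpfer-1 (29.1% and 27.1% over all genes), and 1 rose and 1 fell in the Mpmri-1-labelled libraries (33.0% and 31.1%). MpRALF2 had 88.1, 84.1 and 91.2 CPM in the Tak-1 libraries and 45.6, 49.1 and 43.3 CPM in Mpfer-1. It fell there by 0.93 (SE 0.099, edgeR adjusted p 8.68e-06). Tak-2 libraries had 74.7, 69.5 and 69.9 CPM and in the Mpmri-1-labelled libraries 75.1, 56.8 and 60.2 CPM, which overlap, with a log2 fold change of -0.16 (edgeR adjusted p 0.175). On library totals that value was -0.30 (adjusted p 0.006), and without Mpmri-1 replicate A it was -0.29 (adjusted p 0.00586). The difference of both effects was 0.78 (edgeR adjusted p 0.00157), of the same sign as that of MpFER.

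MpRALF3 had 12.1, 13.6 and 9.43 CPM in the Tak-1 libraries and 5.78, 6.32 and 5.87 CPM in Mpfer-1. Tak-2 libraries had 9.17, 7.3 and 9.66 CPM and in the Mpmri-1-labelled libraries 5.95, 4.68 and 4.48 CPM. It fell by 0.96 (SE 0.16, edgeR adjusted p 0.000344) and by 0.80 (SE 0.17, edgeR adjusted p 0.00141), and the difference was not called (0.17, adjusted p 0.593). MpRALF1 was at -0.18 in Mpfer-1 (edgeR adjusted p 0.211) and at 0.31 in the Mpmri-1-labelled libraries (adjusted p 0.0314). This last call was lost without Tak-2 replicate A (0.34), B (0.29) or C (0.30), without Mpmri-1 replicate A (0.15) and on totals (0.17). It was also lost with both groups fitted alone (0.315), a setting that called MpRALF1 lower in Mpfer-1 (-0.18, edgeR adjusted p 0.0331).

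Of 2 co-receptor genes, MpLRE2 fell in both comparisons, by 0.36 in Mpfer-1 (SE 0.087, edgeR adjusted p 0.00402) and by 0.68 in the Mpmri-1-labelled libraries (SE 0.089, edgeR adjusted p 4.05e-05). On totals the first was -0.18 (adjusted p 0.0585). Over all genes 27.1% were called lower in Mpfer-1 and 31.1% in the Mpmri-1-labelled libraries. MpLRE1 had 71.1, 77.4 and 54.8 CPM in Tak-2 and 123, 119 and 55.2 CPM in the Mpmri-1-labelled libraries, where replicate C lay among the wild type. Its log2 fold change of 0.55 was not called (edgeR adjusted p 0.0663), and without Mpmri-1 replicate C it was 0.84 (adjusted p 0.000186). DESeq2 called MpLRE1 there with all libraries kept (0.55, adjusted p 0.0382). In Mpfer-1 it was at 0.26 (adjusted p 0.377).

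On the TMM scale, edgeR called 0 of 3 genes of the GTPase switch that lies between receptor and wall in Arabidopsis, in either comparison. Over all genes 56.2% were called in Mpfer-1 and 64.1% in the Mpmri-1-labelled libraries. At an unadjusted p under 0.05, 1 of the 3 passed in Mpfer-1 and 1 in the Mpmri-1-labelled libraries. MpROP, the ROP GTPase, had 189, 199 and 188 CPM in the Tak-1 libraries and 168, 183 and 159 in Mpfer-1, and 178, 182 and 166 in Tak-2 and 171, 158 and 175 in the Mpmri-1-labelled libraries. Its log2 fold changes were -0.17 (SE 0.074, edgeR adjusted p 0.0626) and -0.063 (adjusted p 0.473). DESeq2 called the first (-0.20, adjusted p 0.0126), as did edgeR with RLE factors (-0.20, adjusted p 0.0359) and without Mpfer-1 replicate B (-0.21, adjusted p 0.0373). MpKAR (KARAPPO), the RopGEF needed to start gemmae, was at 0.050 and -0.096. MpREN, a RopGAP, was at -0.13 and -0.24 (edgeR adjusted p 0.282 and 0.0566), and without Mpmri-1 replicate C the latter was -0.36 (adjusted p 0.00419). DESeq2 called MpREN in the Mpmri-1-labelled libraries (adjusted p 0.0411), as did limma voom (adjusted p 0.0497) and edgeR on library totals (-0.37, adjusted p 0.0385).

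Genes of the MCA type, homologs of stretch-linked calcium channels of Arabidopsis, moved in opposite directions. Of 4 tested, 1 was higher and 1 lower in Mpfer-1, beside 29.1% and 27.1% over all genes. In the Mpmri-1-labelled libraries 2 were higher and 1 lower, beside 33.0% and 31.1%. MpMCA-I had 52.1, 49.3 and 58.7 CPM in the Tak-1 libraries and 106, 87.8 and 94.4 CPM in Mpfer-1, and 38.1, 35.6 and 42.9 CPM in Tak-2 and 115, 114 and 128 CPM in the Mpmri-1-labelled libraries. It rose by 0.85 (SE 0.10, edgeR adjusted p 2.12e-05) and by 1.61 (SE 0.10, edgeR adjusted p 1.16e-07). MpMCA-IIc had 11.2, 13.1 and 10.8 CPM in the Tak-1 libraries and 2.4, 3.11 and 3.07 CPM in Mpfer-1, and 11.5, 12.6 and 16 CPM in Tak-2 and 4.41, 5.12 and 8.34 CPM in the Mpmri-1-labelled libraries. It fell by 2.03 (SE 0.23, edgeR adjusted p 1.44e-05) and by 1.16 (SE 0.22, edgeR adjusted p 0.000652). MpMCA-IIb rose in the Mpmri-1-labelled libraries (0.76, edgeR adjusted p 3.86e-05) and was at -0.24 in Mpfer-1 (adjusted p 0.0558), where it was called lower without Tak-1 replicate B (-0.30, adjusted p 0.0432), with RLE factors, by DESeq2, with the replicate block and with both groups alone (-0.27 to -0.24, adjusted p 0.0199 to 0.0433). Its difference between both effects was 1.0 (edgeR adjusted p 0.000352). MpMCA-IIa was at 0.26 in both and not called. In the Mpmri-1-labelled libraries it was called without Mpmri-1 replicate C (0.40, edgeR adjusted p 0.026), and in Mpfer-1 on library totals (0.44, adjusted p 0.0246).

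**Figure D4:**
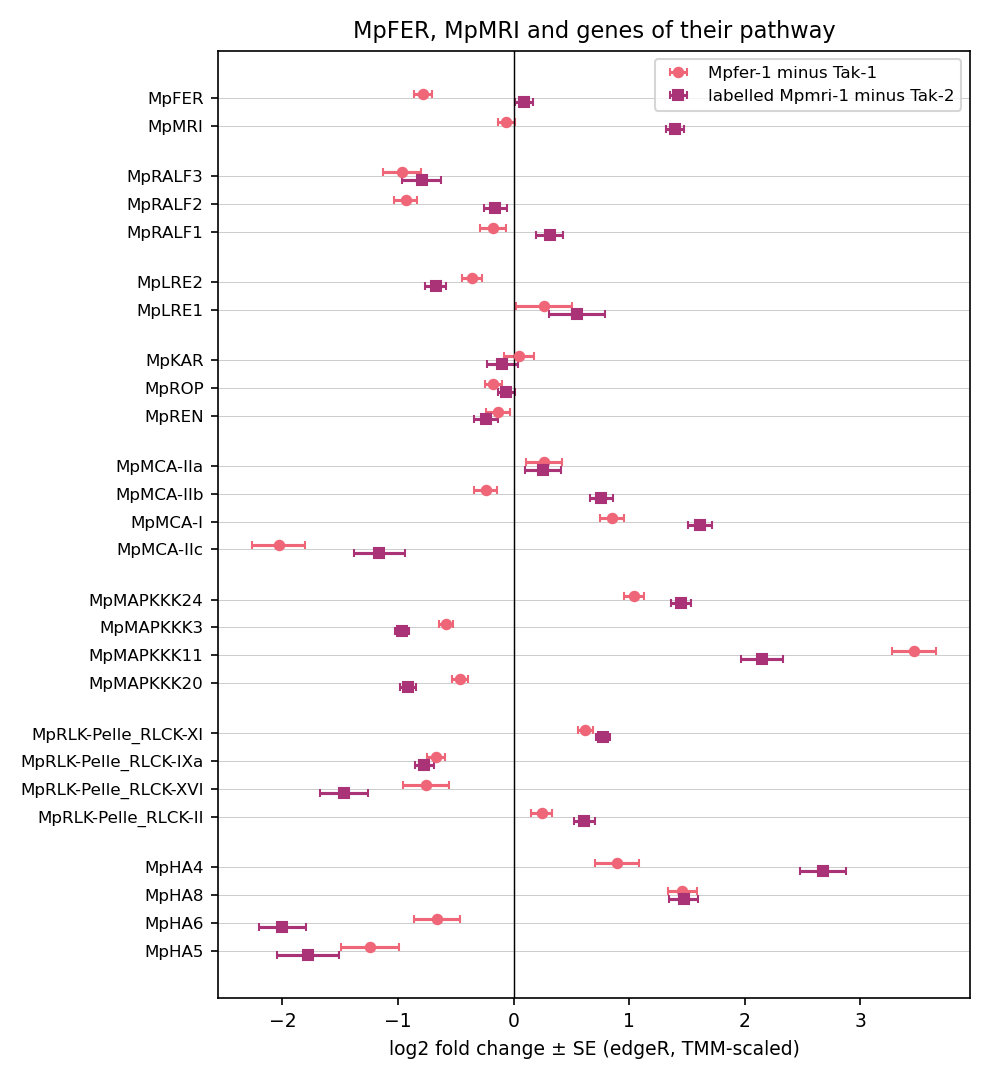
Log2 fold change ± SE (edgeR, TMM-scaled, n = 3 against 3) of MpFER, MpMRI and named genes of the pathway, in Mpfer-1 against Tak-1 and in the Mpmri-1-labelled libraries against Tak-2. MpFER is low only in Mpfer-1 (-0.78) and MpMRI high only in the Mpmri-1-labelled libraries (1.40), while MpMCA-I lies above 0 (0.85 and 1.61) and MpRALF3 below 0 (-0.96 and -0.80) in both.

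Both members belong to the large superfamily of receptor-like kinases. The list held 96 other genes with RLK or RLCK in the symbol, of which 86 were tested. In Mpfer-1, 15 were higher and 33 lower (29.1% and 27.1% over all genes), with a median log2 fold change of -0.19 against 0.022 for all genes. In the Mpmri-1-labelled libraries, 27 were higher and 30 lower (33.0% and 31.1% over all genes), with a median of -0.13 against 0.0015. On totals these counts were 20 and 26, and 21 and 39. Without Tak-1 replicate B, 9 were higher in Mpfer-1. Among the 86, 18 had a lower value than MpFER in Mpfer-1, and 8 had a higher value than MpMRI in the Mpmri-1-labelled libraries. Between the lines, 1 of the 86 had a higher value than MpMRI. Called in both comparisons were 43.0% of the 86, against 40.8% of all genes. Of the 86, 10 were higher in both, 23 lower in both and 4 in opposite directions. Of all 14044 genes, 2813 were higher in both, 2299 lower in both and 617 in opposite directions. The list thus leaned lower, where all genes leaned higher. The difference of the effects was called for 22 upward and 9 downward (21.0% and 16.3% over all genes). On totals it was called for 14 and 20, so that its balance turned with the scaling. The balance over all genes turned too, with 56.4% of called genes higher on the TMM scale and 26.2% on totals.

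Named members of this superfamily moved by very different amounts. MpRLK-Pelle_URK-Pp-1b rose from 0.266, 0.283 and 0.286 CPM in Tak-1 to 12.1, 8.04 and 8.62 CPM in Mpfer-1, and from 0.125, 0.184 and 0.238 CPM in Tak-2 to 6.19, 9 and 12.4 CPM in the Mpmri-1-labelled libraries. Its log2 fold changes were 5.08 and 5.61 (SE 0.32 and 0.35). MpRLK-Pelle_LysM5, of the LysM type known in other plants for binding chitin-like molecules, rose by 0.48 in Mpfer-1 and by 1.73 in the Mpmri-1-labelled libraries. MpRLK-Pelle_L-LEC26 and MpRLK-Pelle_L-LEC2, of the lectin type, rose by 1.98 and 1.96 in the Mpmri-1-labelled libraries. Their values in Mpfer-1 were 0.36 and 0.43. Those calls were lost without Tak-1 replicate A (0.34 and 0.40) or B (0.27 and 0.34), and for MpRLK-Pelle_L-LEC26 also without Mpfer-1 replicate A (0.35) or B (0.31). The numbers in these symbols mark large families, in which estimated counts can be divided between near-identical copies, so single members are uncertain.

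Cytoplasmic kinases, the class of MpMRI, were called higher for 5 and lower for 6 of 16 genes in each comparison. MpRLK-Pelle_RLCK-Vb, named after its values were seen, rose by 0.29 in Mpfer-1 and was at -0.18 in the Mpmri-1-labelled libraries. Over all genes 29.1% were higher and 27.1% lower in Mpfer-1, and 33.0% and 31.1% in the Mpmri-1-labelled libraries. On totals the counts were 5 and 4 in Mpfer-1, and 2 and 8 in the Mpmri-1-labelled libraries. The 5 higher in Mpfer-1 became 3 without Tak-1 replicate A, B or C or Mpfer-1 replicate A. None of the 16 rose in the Mpmri-1-labelled libraries by 1 or more on the log2 scale, where MpMRI rose by 1.40. Of the 86 receptor-like kinases 10 were called higher there by 1 or more, and 1702 of 14044 genes had a higher value than MpMRI. Whether 0 of 16 departs from that background was not tested. MpRLK-Pelle_RLCK-XI rose by 0.62 in Mpfer-1 and by 0.77 in the Mpmri-1-labelled libraries. MpRLK-Pelle_RLCK-IXa fell by 0.67 and by 0.77, and MpRLK-Pelle_RLCK-XVI by 0.76 and by 1.47 (edgeR adjusted p between 8.17e-07 and 0.00578 for these 3 genes). Of 3 receptor-like kinases with Extensin in the symbol, MpRLK-Pelle_Extensin3 fell in both, by 0.69 and by 0.88, and MpRLK-Pelle_Extensin1 fell by 0.22 in Mpfer-1 (edgeR adjusted p 0.0103), a call lost on totals (-0.048) and without Mpfer-1 replicate B (-0.19).

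MAP kinase cascades relay signals from receptor kinases in plants. Of 29 tested genes of the cascade list, 6 were higher and 5 lower in Mpfer-1, and 8 higher and 11 lower in the Mpmri-1-labelled libraries. Over all genes the shares were 29.1% and 27.1%, and 33.0% and 31.1%. With both groups fitted alone 10 were higher in Mpfer-1, and on totals 12, while on totals 5 were higher and 13 lower in the Mpmri-1-labelled libraries. MpMAPKKK11 had 2.03, 1.82 and 2.37 CPM in the Tak-1 libraries and 25.2, 19.8 and 23.6 CPM in Mpfer-1. Tak-2 libraries had 4.25, 4.18 and 4.01 CPM and in the Mpmri-1-labelled libraries 15.2, 23.9 and 16 CPM. It rose by 3.46 and by 2.15 (SE 0.19 and 0.18, edgeR adjusted p 1.08e-07 and 9.65e-07). MpMAPKKK24 rose by 1.04 and 1.45. MpMAPKKK3 fell by 0.58 and by 0.96, and MpMAPKKK20 by 0.46 and by 0.92. For these last 3, the larger change was in the Mpmri-1-labelled libraries, and the difference was called by edgeR (adjusted p 0.0214, 0.00521 and 0.00457). For MpMAPKKK24 that call was lost on totals (0.098) and without Tak-1 replicate A (0.39) or C (0.37), Mpfer-1 replicate A (0.38) or C (0.36), or Tak-2 replicate B (0.37).

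In Arabidopsis, FERONIA is linked to abscisic acid through a type 2C phosphatase of group A, the group that the hormone's receptors inhibit. Of 28 phosphatase, receptor and related genes on that list, 22 were tested. The group A genes MpPP2C_A1, MpPP2C_A2 and MpPP2C_A3 did not pass the filter, with at most 7 counts in a library. In Mpfer-1, 7 of the 22 were higher and 8 lower, beside 29.1% and 27.1% over all genes. The 7 became 4 without Tak-1 replicate B or C or Mpfer-1 replicate C, and the 8 became 3 on totals. In the Mpmri-1-labelled libraries, 4 were higher and 12 lower, beside 33.0% and 31.1%. MpPP2C_K1 rose by 0.45 and by 0.94, and MpPP2C_F2 by 0.43 and by 0.76. MpPP2C_H fell by 0.84 and by 0.83, and MpPP2C_E by 0.56 and by 0.25 (edgeR adjusted p at most 0.00408 for these 4 genes). MpPP2C_KAPP, chosen after its values were seen because its Arabidopsis namesake binds receptor kinases, rose by 0.43 (adjusted p 0.000575) and by 0.21 (adjusted p 0.0312).

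FERONIA also restrains the proton pumps of the plasma membrane in Arabidopsis, through phosphorylation. Of 7 tested pump genes among MpHA1 to MpHA9, 3 were higher and 2 lower in Mpfer-1, and 2 higher and 4 lower in the Mpmri-1-labelled libraries. Over all genes the shares were 29.1% and 27.1%, and 33.0% and 31.1%, for these pumps as for those below. MpHA8 rose by 1.46 and by 1.47, and MpHA4 by 0.90 and by 2.68. MpHA5 fell by 1.24 and by 1.78. MpHA6 fell by 0.66 in Mpfer-1, a call lost on totals (-0.48) and without Mpfer-1 replicate B (-0.57), and by 2.0 in the Mpmri-1-labelled libraries. The pattern that made this list had left out pumps with a number above 9, and MpHA11 to MpHA19 were added after the data were seen. Of these 9 genes, 1 was higher and 6 lower in Mpfer-1, and 0 higher and 7 lower in the Mpmri-1-labelled libraries, with medians of -1.40 and -1.21. The 1 became 0 without Tak-1 replicate B or C or Mpfer-1 replicate B. MpHA12 fell by 2.88 and by 3.98, MpHA13 by 2.36 and by 2.91, MpHA15 by 1.90 and by 2.58, and MpHA14 by 1.40 and by 0.75. Several pump genes have adjacent locus numbers, such as MpHA5 and MpHA14, and estimated counts can be divided between near copies.

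Genes next to MpFER and MpMRI were read as a description of their surroundings, with the order of genes taken from the locus numbers. Around MpFER, 6 of the 10 nearest detected genes were tested. In Mpfer-1, where MpFER fell, 0 of the 6 were lower and 3 higher, beside 27.1% and 29.1% over all genes, with values from 0.050 to 1.5. On totals Mp4g15910 was called higher too (0.36), as it was without Tak-1 replicate B (0.28), and Mp4g15950 was lost without Tak-1 replicate B (0.30) or C (0.32). MpLDAP (Mp4g15940), a lipid droplet associated protein and the fourth detected gene toward higher locus numbers, rose from 52.9 to 150 CPM on average in Mpfer-1 (1.5, edgeR adjusted p 2.19e-07) and from 104 to 182 CPM in the Mpmri-1-labelled libraries (0.81, adjusted p 1.15e-05). The adjacent gene with the lower locus number, Mp4g15880, was at 0.36 in Mpfer-1 (edgeR adjusted p 0.0435) and at -0.38 in the Mpmri-1-labelled libraries (adjusted p 0.0308). The first call was lost without Tak-1 replicate A (0.32), B (0.33) or C (0.41) and without Mpfer-1 replicate A (0.40) or C (0.31). The other was lost without Tak-2 replicate B (-0.29) and without Mpmri-1 replicate A (-0.38) or C (-0.26). The adjacent gene with the higher number, Mp4g15900, had a mean of at most 0.658 CPM in any group and was not called.

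Around MpMRI, 7 of the 10 nearest detected genes were tested. In the Mpmri-1-labelled libraries, where MpMRI rose by 1.40, 4 of the 7 were higher and 1 lower, with values from -0.47 to 0.97 and a median of 0.18, beside 33.0% and 31.1% over all genes. On totals 3 of the 4 were no longer called, Mp7g17510 (0.16), Mp7g17520 (0.043) and Mp7g17590 (0.065), and Mp7g17500 was called lower (-0.23). Mp7g17520 was also lost without Tak-2 replicate A (0.19), B (0.16) or C (0.18) or Mpmri-1 replicate B (0.15). The highest was the adjacent gene Mp7g17550, which had means of 0.952 CPM in Tak-2 and 1.88 CPM there (0.97, edgeR adjusted p 0.0248). It was lost without Tak-2 replicate B (0.99) or C (0.83) or Mpmri-1 replicate A (0.58), and in Mpfer-1, where it stood at 1.14, without Tak-1 replicate A (0.97). On the other side, Mp7g17570 had a mean of at most 0.0698 CPM in any group and was not tested. MpROP, named above, is the second detected gene from MpMRI toward lower locus numbers.

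**Figure D5:**
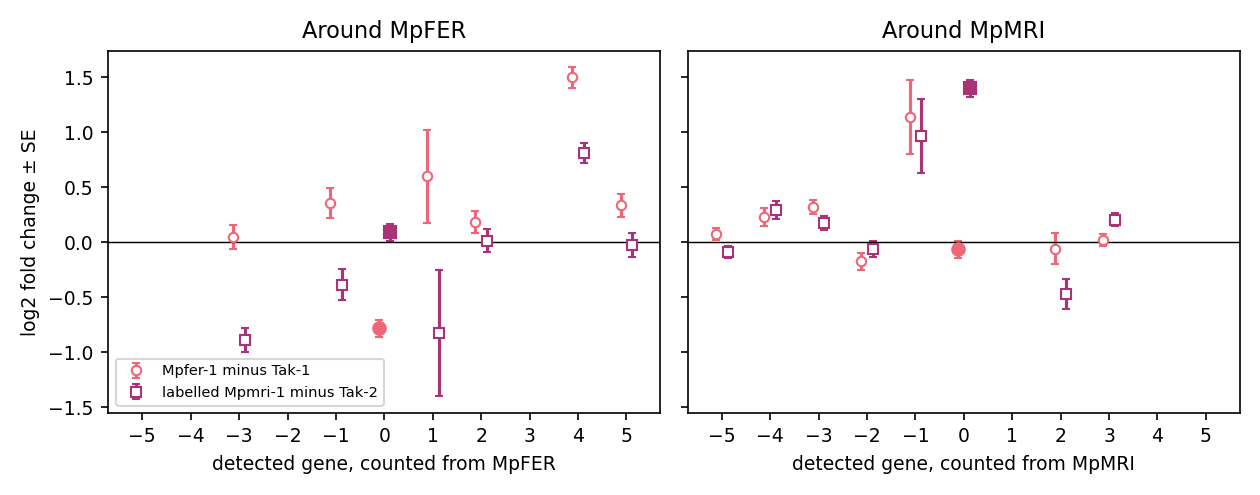
Log2 fold change ± SE (edgeR, n = 3 against 3) of the tested genes among the 5 nearest detected genes on each side of MpFER (left) and MpMRI (right), which stand at 0 on the horizontal axis. MpFER at -0.78 lies below all tested neighbours in Mpfer-1, which run from 0.050 to 1.5, and MpMRI at 1.40 lies above all tested neighbours in the Mpmri-1-labelled libraries, which run from -0.47 to 0.97.

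Finally, the genes whose level followed each member most closely over the 12 libraries were listed. The measure was the root mean square difference of log2 CPM, each gene centred on its own mean, over 12523 genes with a mean of at least 1 CPM. For MpFER, whose own spread was 0.42, the median over these genes was 0.55. The nearest was MpBBX3 (Mp3g19670, a B-box protein) at 0.098, then Mp4g15090 at 0.11 and Mp1g17800 at 0.11, and Mp3g19680, whose locus number is next to that of MpBBX3, stood at 0.12. MpPEX11 (Mp8g02510), of a family that divides peroxisomes, and MpGR3 (Mp6g13770) stood at 0.12. MpBBX3 had means of 60.5, 39.9, 72.7 and 81.1 CPM in Tak-1, Mpfer-1, Tak-2 and the Mpmri-1-labelled libraries, and MpPEX11 265, 141, 303 and 294 CPM. By group means, 0 of these 8 were among the nearest 8.

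For MpMRI, whose own spread was 0.67, the median over genes was 0.78. The nearest were Mp7g06870 at 0.19, MpAPX3 (Mp8g17560, an ascorbate peroxidase) at 0.24 and Mp7g04940 at 0.24. These values are larger than those of the genes nearest to MpFER. The measure is not scaled to a member's own spread, which was larger for MpMRI, so it does not rank the members by closeness. Mp7g06870 had means of 4.59, 5.25, 5.64 and 15.6 CPM in Tak-1, Mpfer-1, Tak-2 and the Mpmri-1-labelled libraries, and MpAPX3 127, 146, 153 and 303 CPM. By group means, 4 of these 8 were among the nearest 8.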

How the data were processed

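Estimated counts of 23399 transcript models in 12 libraries were deposited by the authors as 1 table (3-week-old thalli with rhizoids). Per the submitters' processing notes FastQC, fastp and DESeq2 were used, whereas quantifier, genome build and annotation were not given in the sources used here. Per the labels' protocols, libraries came from a stranded mRNA kit with spike-in RNA, and the table held 0 spike-in rows. Of the deposited values 65.5% were whole within 1e-09. All columns matched a sample by name, with 0 unmapped.

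Estimated counts were summed over the models of a gene and rounded, giving 18336 genes and 25548038 to 35313222 counts per library. Tests used edgeR 4.0.16 under R 4.3.3 (quasi-likelihood F test, TMM, filter on low counts by group, 1 mean per group over all libraries, Benjamini-Hochberg over 14044 genes). Standard errors were derived from the fold change and F. Ratios and levels relative to reference genes were compared by exact permutation tests (Python 3.11.15). The test script was tried on simulated data. Alternatives were library totals, RLE factors, DESeq2 1.42.0, limma 3.58.1 (voom), no filter, both groups alone, a replicate block, transcript models and leaving out each library.

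Symbols and synonyms came from a table of the assembly MpTak2_v7.1, joined by locus number, which is an assumption, and 3095 genes (16.9%) have a symbol. No coordinates are printed. Members and gene lists were chosen with earlier results of these data known. Named are the members, 5 detected genes on each side, all genes of lists with up to 4 members, otherwise the 4 with the smallest adjusted p among those called in both mutant comparisons, and the 8 genes most like each member (pseudocount 0.01 CPM), from which a few are described. The lists for NADPH oxidases and LRX proteins matched 0 symbols, that for CrRLK1L receptors matched MpFER alone, and that for rhizoid transcription factors MpRSL1.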

Additional observations from a re-analysis of the deposited data

Results flagged for a closer look

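Each result here was picked out because the effect in the Mpmri-1-labelled libraries against Tak-2 differed from that in Mpfer-1 against Tak-1 by the test of the difference itself (edgeR quasi-likelihood test, log2 scale, n = 3 in each of 4 groups). Positive values mean a more positive effect in the Mpmri-1-labelled libraries. Groups of 3 were not tested for single samples that stand apart.

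The difference was 0.87 for MpFER and 1.46 for MpMRI. Among receptor-like kinases it was 1.26 for MpRLK-Pelle_LysM5, 1.62 for MpRLK-Pelle_L-LEC26, 1.54 for MpRLK-Pelle_L-LEC2 and 0.37 for MpRLK-Pelle_RLCK-II. Among ligands it was 0.78 for MpRALF2 and 0.49 for MpRALF1. In the MAP kinase cascade it was 0.41 for MpMAPKKK24, -0.38 for MpMAPKKK3, -1.31 for MpMAPKKK11 and -0.45 for MpMAPKKK20. Among channels it was 1.0 for MpMCA-IIb, 0.76 for MpMCA-I and 0.87 for MpMCA-IIc. Among phosphatases it was 0.49 for MpPP2C_K1, 0.33 for MpPP2C_F2 and 0.31 for MpPP2C_E. Among pumps it was 1.79 for MpHA4, -1.34 for MpHA6 and 0.66 for MpHA14. Near MpFER it was -0.94 for Mp4g15860, -0.74 for Mp4g15880 and -0.69 for MpLDAP.

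On library totals the calls of MpRLK-Pelle_RLCK-II (0.058), MpRALF1 (0.17), MpMAPKKK24 (0.098), MpMCA-I (0.45), MpMCA-IIc (0.58), MpPP2C_K1 (0.18), MpPP2C_F2 (0.0097), MpPP2C_E (-0.0054) and MpHA14 (0.35) were lost. Leaving out 1 library ended the call of MpRALF1 in 8 of 12 cases (0.46 to 0.52), all but those of Tak-1 replicate B and the Mpmri-1-labelled libraries. The call of MpMCA-IIc was lost in 9 cases (0.54 to 0.92), all but those that left out Tak-2 replicate C or Mpmri-1 replicate A or B. It was lost for MpRLK-Pelle_RLCK-II in 8 cases (0.31 to 0.39), the exceptions being Tak-1 replicate C, Mpfer-1 replicate A, Tak-2 replicate A and Mpmri-1 replicate B. For MpPP2C_E it was lost without Tak-2 replicate B (0.28), and for MpHA14 without Tak-2 replicate B (0.62) or Mpfer-1 replicate B (0.57).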

How the results depend on the processing

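MpFER in Mpfer-1, MpMRI in the Mpmri-1-labelled libraries and the difference of the effects for both genes kept their direction and their call under every alternative run. In Tak-2 against Tak-1, where neither gene was called, fitting both groups alone called both (MpFER 0.15, adjusted p 0.0417; MpMRI 0.17, adjusted p 0.0208), and DESeq2 called MpMRI (0.19, adjusted p 0.0295). The cause was not tested. On library totals the difference of the effects of MpPP2C_H turned from 0.0095 to -0.31 (adjusted p 0.0405) and that of MpPP2C_E from 0.31 to -0.0054. Of 4929 other values over 329 further results, 4589 kept direction and call, 131 lost the call, 76 gained it, 131 counts moved by over 1.5 times and 2 reversed.

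Whether the letters A, B and C pair the samples was not settled. Correlations of same-lettered deviations were 0.24, 0.031 and 0.13 in Mpfer-1 and Tak-1, and 0.093, 0.078 and 0.21 in Tak-2 and the Mpmri-1-labelled libraries. All were positive, but below 0.1 in some pairs of each. Those of unlike letters ran from -0.175 to 0.0335 and from -0.197 to 0.122. With the replicate block 7659 genes were called in place of 7893 in Mpfer-1 and 8834 in place of 9004 in the Mpmri-1-labelled libraries. MpFER was at -0.78 and MpMRI at 1.40. Counts per kilobase were not run, as no transcript lengths were at hand. With 3 libraries a group the exact tests of the ratio cannot pass 0.05.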
